A study of Mus musculus with 6 samples.

Results

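The 10 genes described here encode the 5 NF-κB subunits (Nfkb1, Nfkb2, Rel, Rela and Relb) and 5 proteins that feed back on them (Nfkbia, Nfkbib, Nfkbie, Nfkbiz and Tnfaip3). They were chosen by symbol from the 55254 gene symbols of a table of read counts, and each was followed through the transcript that held the most counts on average. The counts came from bone marrow-derived macrophages (BMDMs) of C57BL/6J mice, grown for 10 days in medium conditioned by L929 cells and treated with 100 ng/ml LPS, a component of the bacterial outer membrane, for 4 hrs. The control group was 3 cultures of genotype hnRNPDfl/fl and the M-Δx3,4 group was 3 cultures of genotype LysCre+hnRNPDfl/fl, so that both groups carried the floxed allele of hnRNPD and only the second carried a Cre. LysM-driven Cre acts in the myeloid lineage and removes exons 3 and 4 of hnRNPD, the gene of the AUF1 proteins, which bind AU-rich elements in the 3′ untranslated region (3′ UTR) of mRNAs. The bone marrow came from mice aged 6 to 8 weeks by the study's methods, whose sex was not given in the sources used here. All 6 libraries were LPS-treated, so the induction of these genes by LPS was not measured, and in bulk RNA fewer cells of a type and less RNA per cell cannot be told apart.

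NF-κB is a family of dimeric transcription factors held in the cytoplasm of resting macrophages by inhibitory IκB proteins. LPS signals through TLR4 to the IκB kinase, which marks IκBα for destruction and releases dimers such as that of RelA and p50 to the nucleus. The family writes its own brakes: the genes of IκBα and of the ubiquitin-editing enzyme A20 are among its best known targets, as are several of the subunit genes. A slower, non-canonical branch processes the Nfkb2 product p100 to p52, which pairs with RelB. Many mRNAs of this system are short-lived, and AU-rich elements are among the sequences that mark them.

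The repeated core of an AU-rich element is the pentamer ATTTA, written here as DNA. It was searched on the sense strand of the annotated 3′ UTR of each member, taking the protein-coding transcript with the highest mean count, and overlapping copies were counted. Of the 10 members, 6 held it. Rel had 12 copies in 5418 bases, Tnfaip3 had 5 in 1821, Nfkb1 had 4 in 700, Nfkbiz had 4 in 1355, Nfkbia had 2 in 512 and Nfkb2 had 1 in 634. No copy was found in the 3′ UTR of Rela, Relb, Nfkbib or Nfkbie. Over all 13205 genes with a counted transcript and such a UTR, 68.2% held at least 1 copy, and the share grew with length. Among 1478 genes with a 3′ UTR of like length, 8.59% held at least as many copies as Nfkb1, the lowest share of the 6. Among 576 genes of the length class of Rel 32.5% held at least as many as Rel. The share was 21.4% for Nfkbia, 26.0% for Tnfaip3, 26.1% for Nfkbiz and 58.6% for Nfkb2. For each of the 6 members 1 window of 30 bases is given below, chosen as one that held the most pentamers. Pentamers are in capitals, and positions are those of GRCm38 from the GENCODE transcripts. Except for Nfkb2, the windows leave out other copies in the same 3′ UTR. They are shown because AUF1 proteins are known to bind AU-rich elements, but binding to these mRNAs was not measured here.
Rel (chr11:23738129-23738158, minus strand): tATTTAagccgaacatcatggcagaATTTA
Tnfaip3 (chr10:19001753-19001782, minus strand): ttATTTAttatgaacttccaagttATTTAa
Nfkb1 (chr3:135584699-135584728, minus strand): tgttgaATTTAtaaatgctATTTActtttt
Nfkbiz (chr16:55811851-55811880, minus strand): cctcttagATTTAtgtaATTTAcctaagtt
Nfkbia (chr12:55489608-55489637, minus strand): aggaccacgttttATTTAttgtgcttttga
Nfkb2 (chr19:46311944-46311973, plus strand): taatcgaaatcttATTTAaacctcaagccc

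The promoters were read from RefSeq (GRCm38.p6), from 250 bases before to 50 bases after each annotated start, and 7 of the 10 members matched an entry (Nfkb1, Relb and Nfkbiz did not). The 10-base NF-κB (κB) consensus was searched on both strands, and overlapping matches were each counted. It was present in the promoters of 5 of the 7, namely Nfkb2, Rel, Nfkbia, Nfkbie and Tnfaip3, compared with 5.14% of 27025 genes. Rela and Nfkbib had no match in this window. One window for each of the 5 is given below with the 10 matching bases in capitals, because a κB sequence at the start site is the textbook basis of feedback within this family. A match is a description of the letters and not a measured binding site.
Nfkb2 (chr19:46304716-46304745, plus strand): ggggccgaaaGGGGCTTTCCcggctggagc
Rel (chr11:23771042-23771071, minus strand): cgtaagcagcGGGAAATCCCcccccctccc
Nfkbia (chr12:55492657-55492686, minus strand): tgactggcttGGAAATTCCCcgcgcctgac
Nfkbie (chr17:45555584-45555613, plus strand): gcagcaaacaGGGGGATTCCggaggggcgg
Tnfaip3 (chr10:19015403-19015432, minus strand): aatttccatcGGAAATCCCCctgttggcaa

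Summed counts ran from 5852374 to 9008878 per library. The deleted gene itself, Hnrnpd, was counted through its p37 transcript at 174, 102 and 68.2 normalized counts in control and 51.8, 12.4 and 15.7 in M-Δx3,4, with log2FC, the log2 fold change of M-Δx3,4 over control, at -2.11 (SE 0.54, adjusted p = 0.984, edgeR). All 8 macrophage markers were counted, and Lyz2, the locus into which LysM-Cre is inserted, was the 1 of them with an unadjusted p under 0.05 (log2FC -0.91, SE 0.30). The summed level of the 6 B-cell markers was 294 to 351 normalized counts in control and 139 to 161 in M-Δx3,4. Most of it was Igkc, while Ms4a1 had 2, 3 and 1 reads in control and 0 in each M-Δx3,4 library. Of 8 neutrophil markers 7 had a count, and they summed to between 370 and 695 in every library with Ly6g, Retnlg and Mpo at 2 counts or fewer, and the T-cell (1 of 4 with a count), dendritic-cell (4 of 4) and fibroblast (4 of 4) lists each summed to 42.1 or less. The libraries also differed in how they counted transcripts of different base composition. In the fifth of transcripts with the lowest GC content over their last 500 bases, the median log2 deviation from the transcript's own mean was 0.43 in control 1 and -0.53 in control 3, and in the fifth with the highest it was -0.39 and 0.55. M-Δx3,4 replicate 3 leaned the same way as control 1 (0.37 and -0.26). The part of B-cell RNA in the members' results was not tested. Values with the GC trend removed are given with the members.

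The members differed widely in level. On the deposited TPM scale, which divides by the counted length, Nfkbia led with 235 ± 22.0 TPM in control and 212 ± 29.96 in M-Δx3,4 (SD, n = 3). It encodes IκBα, the inhibitor that is destroyed and resynthesised in each round of activation, and none of its libraries overlapped those of any other member. Relb, Nfkbib, Nfkb1, Nfkb2 and Rela followed, with control means from 46.9 TPM for Relb down to 25.4 TPM for Rela. Neighbours among these 5 overlapped over the 6 libraries, so their order is not resolved. Nfkbiz stood below them at 9.59 ± 3.01 TPM in control, where it overlapped neither Rela above nor Tnfaip3 below it, although in M-Δx3,4 it overlapped Nfkb2. Lowest were Tnfaip3 (3.47 ± 0.97), Nfkbie (2.75 ± 0.26) and Rel (1.03 ± 0.68), each overlapping the next over the 6 libraries, although in control Nfkbie and Rel did not overlap. The order was the same in M-Δx3,4 except that Nfkb2 and Rela exchanged places. Reads were taken from the 3′ end, so the division by length weighs on Rel, whose counted region spans 5667 bases, compared with 761 for Nfkbia.

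**Figure D1:**
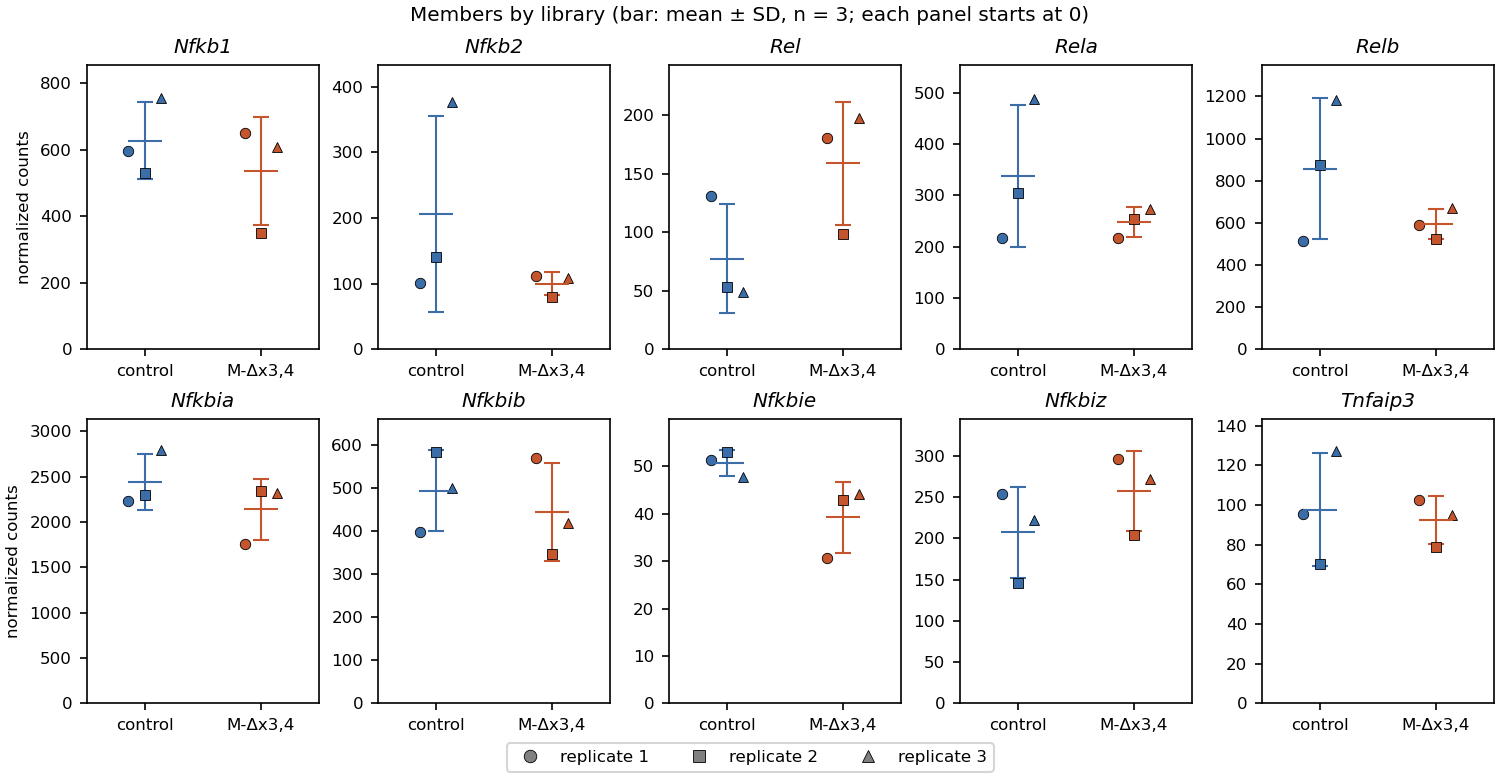
Normalized counts of the 10 members in each library (y axis, starting at 0) for the control and M-Δx3,4 groups. Points are libraries, with symbols for the replicate number, and bars are the mean ± SD (n = 3). Rel is higher and Nfkb2 lower in the M-Δx3,4 mean, Nfkb2 with 1 control library far above the rest, and only Nfkbie has groups that do not overlap.

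The comparison of M-Δx3,4 with control BMDMs asked whether the myeloid deletion of AUF1 functions altered the mRNAs of this system in LPS-activated macrophages. The members farthest from 0 were a pair of subunit mRNAs, in opposite directions. Rel, which encodes c-Rel, had a log2FC of 1.04 (SE 0.44) and Nfkb2, which encodes p100, one of -1.04 (SE 0.45). The other 8 lay between -0.53 and 0.31. With the GC trend of the libraries removed Rel stood at 0.81, whereas Nfkb2 (-0.56) lay level with Nfkbia (-0.57) and Nfkb1 (-0.56). Of all 10 members 8 were lower and 2 higher, with a median log2FC of -0.21, compared with -0.01 over the 11873 genes tested, of which 49.5% were higher. All 10 members passed the filter on low counts. The quasi-likelihood test of edgeR called 2 of the 10 at an unadjusted p under 0.05, against 3.98% of all genes tested, and when the log2FC also had to reach 1 in size the same 2 were called against 3.07%. After Benjamini-Hochberg adjustment over all transcripts none of the 10 was called, as none of all genes was (0%), and the adjusted p of the members ran from 0.984 to 0.996. DESeq2 called none of the 10 after adjustment and 2 at an unadjusted p under 0.05, and limma-voom 0 and 1. Groups that did not overlap were found for 1 of the 10, against 8.44% of genes. The smallest p that a two-sided exact permutation test can reach with groups of 3 is 0.1. The median absolute log2FC of the members, 0.34, was close to the 0.36 of all genes.

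**Figure D2:**
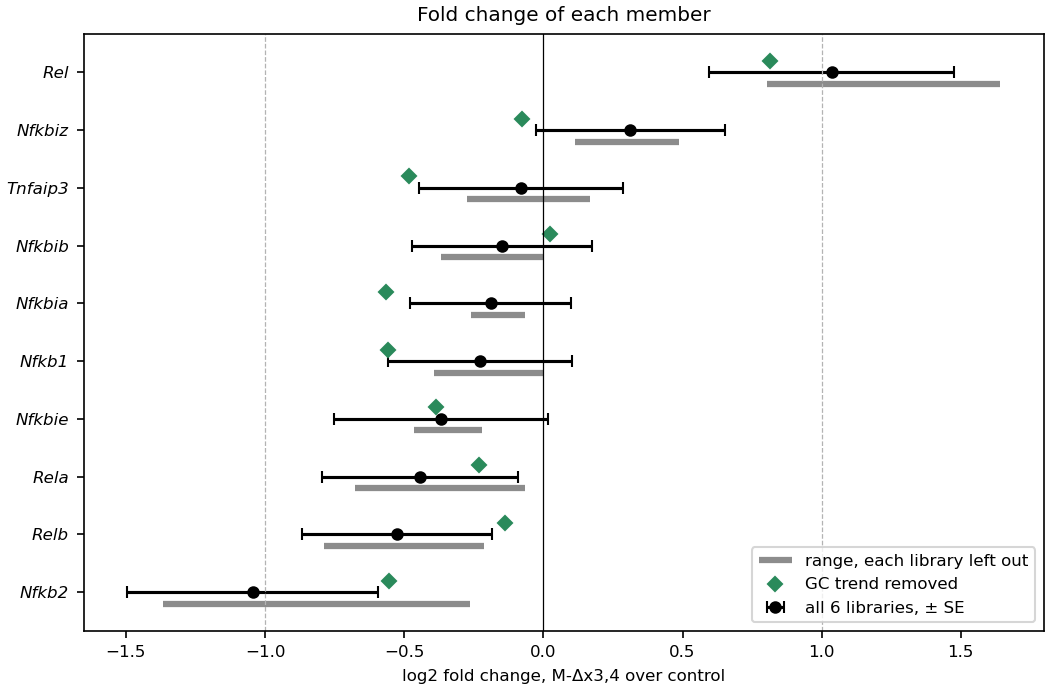
Log2 fold change of each member, M-Δx3,4 over control (x axis). Black points are the values from all 6 libraries with their SE, grey bars the range when each library was left out in turn, and green diamonds the values after removal of each library's GC trend. Rel stays above 0 and Nfkb2 below 0 in all of these, and the grey bar of Nfkb2 runs from -1.37 to -0.26.

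Rel encodes a subunit with a transactivation domain that drives cytokine genes such as Il12b in macrophages. It was counted at 131, 53.1 and 48.9 (normalized counts) in control and at 180, 98.9 and 198 in M-Δx3,4 (77.6 ± 46.2 against 159 ± 52.7, SD, n = 3). Control 1 lay above M-Δx3,4 replicate 2, so the groups overlapped (unadjusted p = 0.033 and adjusted p = 0.984, edgeR; exact permutation p = 0.2). The unadjusted p stayed under 0.05 without control 1 (log2FC 1.64, in a fit that called 16% of all genes) and without M-Δx3,4 replicate 2. It did not without control 2 (0.82), control 3 (0.80), M-Δx3,4 replicate 1 (0.93) or M-Δx3,4 replicate 3 (0.85). The last 500 bases of the Rel transcript were 33.8% GC, compared with a median of 45.6% over the genes tested, and with the GC trend of the libraries removed the log2FC was 0.81 with an unadjusted p still under 0.05.

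Nfkb2 encodes p100, the precursor of p52 and itself an IκB-like inhibitor. Its counts were 101, 140 and 377 in control and 111, 79.9 and 109 in M-Δx3,4. Control 3 alone was high, and control 1 lay below 2 of the 3 M-Δx3,4 libraries (unadjusted p = 0.035 and adjusted p = 0.984, edgeR; exact permutation p = 0.3). Without control 3 the log2FC was -0.26, and without any 1 of the M-Δx3,4 libraries the unadjusted p was above 0.05 with values from -1.13 to -0.91. Nfkb2 had the highest GC content of the members (61.4%), and with the GC trend removed its log2FC was -0.56 with an unadjusted p of 0.11.

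The annotation held 7 transcripts of Nfkb2 with counts, with 6 different sets of counts. All 7 had an unadjusted p under 0.05, against 1340 of the 32475 transcripts tested, and a negative log2FC (-1.11 to -0.90). The 7 share most of their reads and are not independent, so they do not add to each other. The transcript with the most counts, ENSMUST00000237791, is annotated as a target of nonsense-mediated decay and was counted over 3 segments between 46311390 and 46312143 of chromosome 19 (plus strand, mm10), the last of which overlaps Psd on the opposite strand. In the other 6 Nfkb2 transcripts the groups did not overlap, against 8.44% of all genes by their top transcript. The protein-coding ENSMUST00000237330 had 80.9, 122 and 241 normalized counts in control and 78.6, 63.7 and 78.6 in M-Δx3,4. The gap between its groups was thus small, from 78.6 to 80.9. The 2 transcripts with the fewest counts, ENSMUST00000236820 and ENSMUST00000237761, had 54.7, 89.1 and 138 against 51.8, 30.4 and 47.9.

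**Figure D3:**
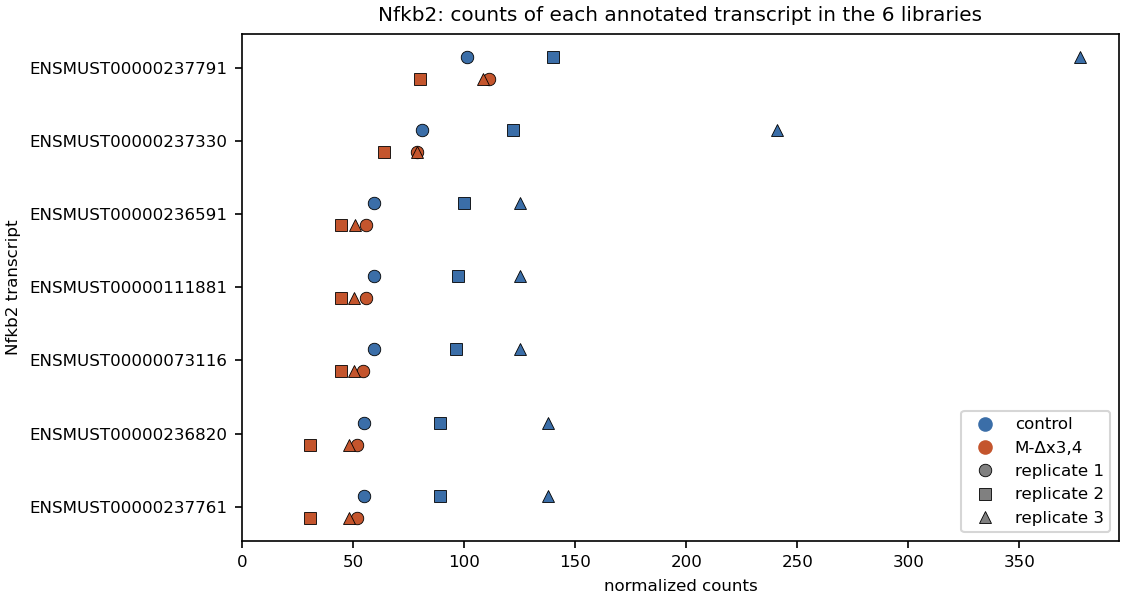
Normalized counts (x axis, from 0) of the 7 annotated Nfkb2 transcripts (y axis) in the 3 control and 3 M-Δx3,4 libraries, with symbols for the replicate number. Control 3 is the highest library for every transcript and control 1 lies next to the M-Δx3,4 libraries, at 80.9 against at most 78.6 for ENSMUST00000237330.

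Relb, the partner of p52 in the non-canonical branch, was counted at 512, 876 and 1181 in control and at 588, 525 and 669 in M-Δx3,4. Controls 2 and 3 lay above all M-Δx3,4 libraries and control 1 below them (log2FC -0.53, SE 0.34, adjusted p = 0.984, edgeR). Rela, whose product p65 is the main activating subunit after TLR4, had 218, 305 and 489 against 217, 254 and 273. It showed the same arrangement in a milder form, with control 1 level with M-Δx3,4 replicate 1 (log2FC -0.44, SE 0.35, adjusted p = 0.984, edgeR). Without control 1, in a fit that called 16% of all genes, both had an unadjusted p under 0.05. Relb then had a log2FC of -0.79 and Rela of -0.68. Without control 3 they stood at -0.21 and -0.07, and with the GC trend removed at -0.14 and -0.23. Nfkb1, the gene of p105 and p50, had 597, 531 and 756 in control and 652, 349 and 607 in M-Δx3,4. The groups overlapped and M-Δx3,4 replicate 2 was the lowest library (log2FC -0.23, SE 0.33). Without that replicate its log2FC was 0.0029, and with the GC trend removed it was -0.56 (unadjusted p = 0.11, edgeR). The transcripts followed for Nfkb1 and Relb are annotated as targets of nonsense-mediated decay. Protein-coding transcripts with nearly the same counts had a log2FC of -0.23 (Nfkb1, ENSMUST00000029812) and -0.53 (Relb, ENSMUST00000049912).

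Nfkb1 held 1 further transcript that was singled out after its values were seen. ENSMUST00000138602 is counted over the region at chr3:135610341-135610589 (minus strand), upstream of the common 3′ end of the gene. It had 0 counts in each control library and 1, 8 and 16 in the M-Δx3,4 libraries, and it passed the filter on low counts only through the latter, so no test is given.

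Among the inhibitors, Nfkbia was counted at 2233, 2296 and 2798 in control and at 1754, 2346 and 2324 in M-Δx3,4. M-Δx3,4 replicate 1 was the lowest library and control 3 the highest, with the other 4 close together (log2FC -0.19, SE 0.29, adjusted p = 0.984, edgeR). With the GC trend removed its log2FC was -0.57 (unadjusted p = 0.091, edgeR). Nfkbib encodes IκBβ, a slower inhibitor, and had 397, 585 and 499 against 570, 347 and 419. Its groups interleaved (log2FC -0.15, SE 0.32), and with the GC trend removed the sign changed, to 0.02. Nfkbie encodes IκBε, a late inhibitor, and had 51.2, 53.1 and 47.7 against 30.7, 42.8 and 44.2. It was the 1 member whose groups did not overlap, with 50.7 ± 2.7 in control and 39.2 ± 7.4 in M-Δx3,4. Its log2FC of -0.37 (SE 0.38) did not pass the test (unadjusted p = 0.35, edgeR; exact permutation p = 0.1). It was also the member with the fewest counts, from 32 to 59 reads in each library.

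Nfkbiz encodes IκBζ, a nuclear member of the family that switches on secondary response genes such as Il6. Its counts were 254, 146 and 222 in control and 296, 204 and 272 in M-Δx3,4, with a log2FC of 0.31 (SE 0.34) and overlapping groups. With the GC trend removed the sign changed, to -0.08; its last 500 bases had the lowest GC content of the members (29.4%). Tnfaip3 encodes A20, which takes ubiquitin chains off signalling proteins upstream of the IκB kinase. It had 95.7, 70.1 and 127 in control and 103, 79.0 and 95.1 in M-Δx3,4. All M-Δx3,4 libraries lay inside the range of the control libraries (log2FC -0.08, SE 0.37, adjusted p = 0.996, edgeR). With the GC trend removed its log2FC was -0.48, and none of these alternatives brought the unadjusted p of Nfkbiz or Tnfaip3 under 0.05.

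For every member except Nfkbie the log2 range of the control libraries was larger than the size of its log2FC. A range of libraries and a difference of group means are unlike measures. The range was widest for Nfkb2, Rel, Relb and Rela. Between control 1 and control 3 the log2 difference was 1.90 for Nfkb2, 1.205 for Relb, 1.17 for Rela and -1.42 for Rel. The range of the controls over all genes with over 50 normalized counts was 0.91 in the median, compared with 0.60 for the M-Δx3,4 libraries. The 3 members with the highest GC content (Nfkb2, Relb and Rela) were thus the ones most in excess in control 3 over control 1, and Rel was the one most in deficit. Nfkbib, with 53.4% GC, differed by 0.33, Nfkbie by -0.10 and Nfkbiz by -0.20. Tnfaip3 (35.4% GC), Nfkbia (37.2%) and Nfkb1 (39.2%) were low in GC and yet in excess in control 3, by 0.41, 0.33 and 0.34. This is a description over 10 genes counted in the same libraries, and it carries no test.

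**Figure D4:**
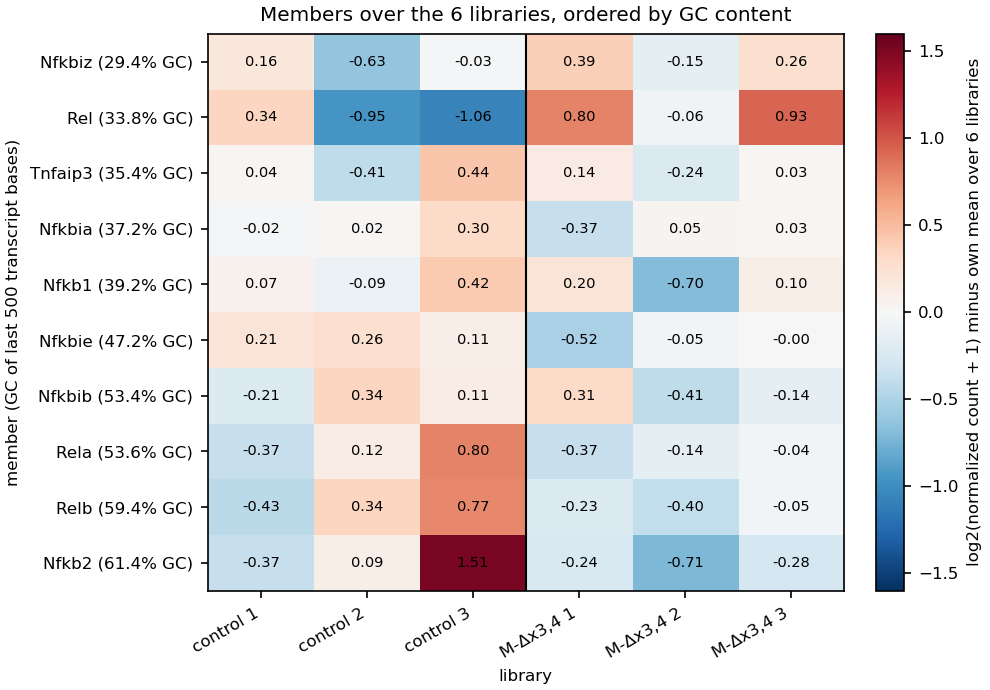
Log2(normalized count + 1) of each member minus its own mean over the 6 libraries (colour and number in each cell), with libraries on the x axis and members on the y axis, ordered by the GC content of the last 500 transcript bases. Nfkb2, Relb and Rela, at the high end, are highest in control 3 (1.51, 0.77 and 0.80), and Rel, at the low end, is lowest there (-1.06). Tnfaip3, Nfkbia and Nfkb1, also toward the low end, are highest in control 3 as well (0.44, 0.30 and 0.42).

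The share of a gene's counts in a second counted region could be followed in 7 members. In Relb, Nfkbia and Nfkbib this region was separate from the main one, and the percent is of both together. In Nfkb1, Nfkb2, Nfkbie and Tnfaip3 it lay inside the main one, and the percent is of the main region. Both Nfkbib regions belong to the same transcript, so its share does not measure a choice between 3′ ends. In Relb the upstream and downstream regions kept the same proportion in all 6 libraries, with 32.1 ± 0.5% of counts in the second region in control and 32.2 ± 2.0% in M-Δx3,4. This was the steadiest of the 7, although the total Relb count varied over 2-fold among the control libraries. In Nfkbib the share of the 1007-base region at chr7:28758002-28759008 was 7.45%, 11.5% and 13.7% in control and 17.98%, 14.2% and 18.3% in M-Δx3,4. The groups did not overlap (difference 5.96 percentage points, exact permutation p = 0.1, adjusted p = 0.7 over the 7 members). That region overlaps Ccer2 on the opposite strand, and whether reads were counted by strand is not given in the sources used here. The remainder of the Nfkbib counts fell in a 5-base segment, chr7:28759098-28759102. In Nfkb1, Nfkb2, Nfkbia, Nfkbie and Tnfaip3 the groups overlapped, with differences from -14.8 percentage points for Nfkbie to 3.48 for Nfkb1.

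The remaining machinery of the pathway was read from lists of 75 genes, all of which passed the filter. Of these, 1 had an unadjusted p under 0.05, against 3.98% of all genes tested, and none an adjusted p under 0.05. Groups that did not overlap were found for 7 of the 75, against 8.44% of all genes. In all there were 36 higher and 39 lower, with a median log2FC of -0.02. Among the 3 other IκB proteins none was called, and Bcl3, a nuclear partner of p50 and p52, had 221, 426 and 446 normalized counts in control and 301, 234 and 277 in M-Δx3,4 (log2FC -0.43, SE 0.34). Its controls were arranged like those of Relb, with control 1 lowest. Nfkbid, another nuclear IκB, stood at -0.76 (SE 0.51) with 30.05 normalized counts on average. None of 13 adaptors and receptor-proximal kinases was called (7 higher, 6 lower, median 0.08). Myd88, the adaptor of TLR4 and the one with the most counts, stood at -0.27, and Irak2, a kinase it recruits, at -0.24. Of the 10 genes of the IκB kinase and of the ligases that mark IκB none was called (median 0.15). Ikbke stood at -0.14 and Ikbkb, the main IκB kinase after LPS, at 0.02, with controls of 353, 252 and 95.5 that spanned its M-Δx3,4 libraries. The 7 genes of the ubiquitin machinery (median -0.19) and the 12 partners of A20 and other brakes (median 0.12) included none that was called. Birc3 and Birc2, ligases of the same branch, stood at 0.28 and 0.10. Zfp36, which destabilises AU-rich mRNAs, stood at -0.37 (SE 0.31) and Zc3h12a, an RNase that acts on inflammatory mRNAs, at -0.22.

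Of 30 known NF-κB target genes 1 was called, against the same 3.98%, 12 were higher and 18 lower, with a median log2FC of -0.12. The one called was Ccl5, the chemokine RANTES, with 3167, 2666 and 3547 normalized counts in control and 1937, 1734 and 2214 in M-Δx3,4. Every M-Δx3,4 library lay under every control library (log2FC -0.67, SE 0.29, unadjusted p = 0.034 and adjusted p = 0.984, edgeR). The target with the most counts, Bcl2a1b, an anti-apoptotic gene, stood at 0.39 with controls from 5280 to 22157, the highest being control 1. It shares near-identical sequence with other Bcl2a1 genes, so its own count is uncertain. Ccl4, a chemokine and next in counts, stood at 0.28. Without control 1, 17 of the 75 genes had an unadjusted p under 0.05, in a fit that called 16% of all genes. None of the 75 had without M-Δx3,4 replicate 2 (2.6% of all genes), without replicate 3 (2.43%) or with the GC trend removed (4.73%).

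**Figure D5:**
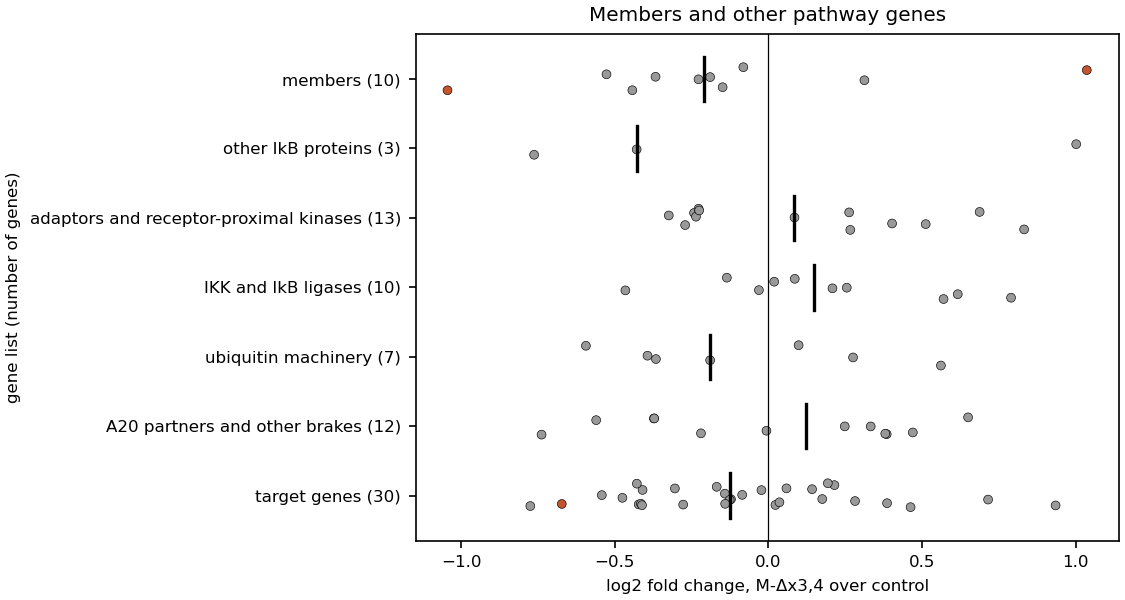
Log2 fold change, M-Δx3,4 over control (x axis), of the 10 members and of the genes of 6 other lists of the pathway (y axis, with the number of genes). Each point is a gene, orange where the unadjusted p was under 0.05, and black bars are medians. Rel (1.04), Nfkb2 (-1.04) and Ccl5 (-0.67) are the 3 orange points.

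For the 9 members with at least 50 normalized counts on average, the genes whose profile over the 6 libraries lay nearest were found by the root mean square difference of centred log2 values, among 4666 other genes. Nearest to Nfkb2 were Pou3f1 (0.14) and Get4 (0.14), and nearest to Rel were Ola1 (0.11) and Gm6749 (0.12). Chd4 (0.06) and Sfxn5 (0.07) lay nearest to Nfkbia. For Rela they were Dnm2 (0.07) and Cops7a (0.08), for Relb Smarcc2 (0.09) and Tmem179b (0.10), and for Nfkb1 Acat1 (0.09) and Atp2a2 (0.10). For Nfkbib they were Dennd5b (0.10) and Usp18 (0.10), for Nfkbiz Hprt (0.08) and Ppp2cb (0.09), and for Tnfaip3 Hadhb (0.09) and Rhbdd2 (0.09). Between members the nearest profiles were those of Rela and Relb (0.15), while Rel was 0.55 from its nearest member, Nfkbiz.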

How the data were processed

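The authors prepared QuantSeq 3′ libraries from 6 BMDM cultures, aligned the reads to mm10 with TopHat2 (2.1.1) and Bowtie2 (2.3.2), per the labels, and deposited raw read counts over 3′ UTR regions of annotated transcripts. The authors also deposited normalized tables with TPM values, which equal counts per counted base scaled per library (within 0.92% for the members), and columns of their own comparison, which were not used; 18 further per-sample columns were not used. Here, counts of the regions of each transcript were summed (142567 transcripts, 52013 with a count), normalized by median of ratios, kept if above the median normalized count (4.79) in at least 1 library (32475 tested), and tested by edgeR's quasi-likelihood test (edgeR 4.0.16, R 4.3.3) with Benjamini-Hochberg adjustment. DESeq2 (1.42.0), limma-voom (3.58.1), other normalizations and filters, and each library left out were alternatives. Removal of the GC trend (median deviation in 20 bins of GC content as an offset) was added after the data were seen. The test was checked on simulated data. Reads carried no molecular identifiers, so copies made in amplification cannot be told from separate molecules. Nothing in the labels says whether the cultures came from separate mice: p-values measure the spread between these cultures, which may be technical. Members and lists were chosen with earlier results of these data known. The genes named from a list are those with an unadjusted p under 0.05 (at most 5) and the 2 with the most counts, with exceptions marked; nearest profiles used genes with a mean of at least 50 normalized counts and a pseudocount of 1.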

Additional observations from a re-analysis of the deposited data

How the results depend on the processing

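The number of members with an unadjusted p under 0.05 was 2 of 10 in edgeR's quasi-likelihood test. It was 1 with limma-voom, 1 with the GC trend removed and 0 to 4 with each library left out. The 4 came without control replicate 1, in a fit that called 16% of all genes. Counting those with a log2FC of 1 or more in size, it was 1 with limma-voom, 0 with the GC trend removed and 0 to 2 with each library left out. No alternative gave a member an adjusted p under 0.05. The number of all transcripts with an unadjusted p under 0.05 and a log2FC of 1 or more in size, 1071, was 706 with DESeq2, 1715 with no filter, 471 with filterByExpr, 366 with 1 transcript per gene and 710 to 3224 with each library left out, the highest without control replicate 1. Among the 75 pathway genes, 1 called became 2 with library totals, DESeq2 or limma-voom and 0 with the GC trend removed. With each library left out it was 0 to 17, the highest again without control replicate 1. The sign of the log2FC was reversed for Nfkb1 without M-Δx3,4 replicate 2 (-0.39 to 0.0029 with each library left out), for Tnfaip3 without that replicate or control replicate 3 (-0.27 to 0.17), and with the GC trend removed for Nfkbib (0.022) and Nfkbiz (-0.078). The cause was not tested. Hnrnpd kept its direction and an unadjusted p under 0.05 throughout (-3.02 to -1.69 with each library left out); its adjusted p ran from 0.00165 with no filter to 1.00. Of 158 alternative values of the members, 140 kept direction and side of the unadjusted threshold. Most of the 158 belong to members that were not called and had no call to lose. The 11 that lost the threshold were all of Nfkb2 and Rel. With a library left out, each of these 2 kept an unadjusted p under 0.05 in 2 of 6 fits (edgeR). In the other alternatives Nfkb2 kept it in 7 of 10 and Rel in 9 of 9. The groups share replicate numbers, and whether these pair the cultures cannot be told from these data. Deviations of same-numbered libraries from their group means correlated at -0.21, 0.54 and -0.31 across 4667 genes. For differently numbered libraries the values ran from -0.40 (control 2 with M-Δx3,4 replicate 3) to 0.54 (control 1 with M-Δx3,4 replicate 3). With a replicate block 1 member was called (1 at the added fold threshold; Nfkb2 stood at -0.84), 2 pathway genes and 685 transcripts. The shares of counts in a second region gave 1 member with separate groups at a minimum of 10 or 20 counts. With 3 cultures a group, a member's SE of 0.29 to 0.45 on the log2 scale limits what could be seen.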
